A study of Drosophila melanogaster with 12 samples.

Results

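Synaptotagmins, synaptobrevins, the t-SNARE Snap25 and complexin were followed in enteroblasts of the adult Drosophila midgut, sorted from flies of 4 genotypes. The set was given as 9 gene symbols and was assembled around Syt4, which was chosen because its reads are lost in all 3 transgenic groups compared with control. The remaining symbols are genes of the same families and of the same fusion machinery. Of the 9 symbols, 8 had a row among the 8802 genes of the count table, and Syx1A was not analysed here. Of these 8, 6 passed a filter on low counts and were tested among 8069 genes (Syt4, Syt7, nSyb, Syb, Snap25 and cpx), while Syt1 and Esyt2 did not pass.

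Enteroblasts are the progenitors between intestinal stem cells and absorptive enterocytes. They were sorted as large cells with high GFP from the posterior midgut (R3 to R5) of virgin females aged 9 days, after 6 days at 29 °C. Flies of all 4 groups carried esg-Gal4, UAS-GFP and tubGal80TS, a heat-sensitive Gal80 repressor, so that UAS transgenes were switched on in cells expressing escargot, stem cells as well as enteroblasts. The first group added UAS-SvbRNAi, a hairpin against Shavenbaby, the transcription factor encoded by ovo. SvbACT flies added UAS-SvbACT::GFP, the constitutive activator form, and SvbREP flies added UAS-Svb3Kmut::GFP, labelled as the repressor form. Control flies came from a cross to the wild-type strain Canton-S and carried no further UAS transgene. Each group had 3 libraries from different days, each from a batch of pooled guts.

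Vesicle fusion is driven by SNARE proteins. A v-SNARE of the synaptobrevin family on the vesicle pairs with a syntaxin and a SNAP protein on the target membrane, and the zippering of the 4-helix bundle brings the membranes together. Synaptotagmins are membrane proteins with paired C2 domains, and several of them bind calcium and tie fusion to a calcium signal. Complexin binds the assembled SNARE bundle and restrains or promotes fusion. In the gut these proteins are best known from enteroendocrine cells, which secrete peptide hormones from dense-core vesicles, and from the neurons that reach the gut wall. Every cell also needs SNAREs for constitutive secretion and endosomal traffic.

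Library totals ran from 2186283 to 7444253 counts, and 3 counts, taken as the floor of detection, corresponded to between 0.379 and 1.40 CPM (counts scaled to library size, with TMM-adjusted totals). The floor covers counting error only. SvbREP replicate 3 was the shallowest library, with no counts for 11.5% of the genes. SvbACT replicates 2 and 3 stood apart as well, with no counts for 10.6% and 10.2% of the genes at totals of 4279512 and 5615977, against 3.39% to 6.18% in the other 9 libraries. The targeted gene was not lower in the libraries labelled svb RNAi. There ovo had 195, 126 and 97 counts, against 9, 117 and 1 counts in control. The scaled ranges overlapped only through control replicate 2, and the log2 fold change of 2.16 was not called (edgeR's adjusted p 0.179). The authors' deposited table does call ovo higher in this comparison, at a log2 fold change of 2.31. Gene-level counts do not separate reads of ovo from any reads of the hairpin, so they cannot check the knockdown. This group is therefore named by its label throughout. In the overexpressing libraries ovo had at least 3750 counts. Of 8 stem cell and enteroblast markers 6 were in the table, with a summed level of 2685 to 3106 CPM in the libraries labelled svb RNAi, 3067 to 3235 CPM in SvbACT, 2631 to 2779 CPM in SvbREP and 3058 to 3315 CPM in control. Of these 6, klu and Sox100B were called lower in the libraries labelled svb RNAi against control by edgeR, where 8.5% of all tested genes were called. E(spl)malpha-BFM had a higher mean there, 463 ± 194 CPM against 230 ± 46.4 CPM in control (SD, n = 3 each). DESeq2 called all 3 of these genes, and the median log2 fold change of the 6 was 0.13. None was called by edgeR in SvbACT or SvbREP against control. The markers esg and Dl were not analysed here.

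Syt4 (FBgn0028400) encodes a synaptotagmin that, at the fly neuromuscular junction, acts in the postsynaptic muscle in calcium-dependent release of retrograde signals. It lies on chromosome 3R from 7266065 to 7270809, on the plus strand, and no annotated exon of another gene overlaps its 3103 exonic bases. The libraries labelled svb RNAi had 4, 0 and 6 Syt4 counts. SvbACT libraries had 0, 0 and 0 counts and SvbREP libraries 4, 0 and 0, against 153, 286 and 134 in control. All 9 transgenic libraries therefore lay far below all 3 control libraries, and 6 of them held no Syt4 read. At these totals a count of 0 still allows between 0.497 and 0.713 CPM in the SvbACT libraries.

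Scaled to depth, Syt4 stood at 0.74 ± 0.65 CPM in the libraries labelled svb RNAi, 0 CPM in SvbACT and 0.20 ± 0.35 CPM in SvbREP, against 38.5 ± 1.30 CPM in control (SD, n = 3 each). The means of the libraries labelled svb RNAi and of SvbREP came to 1.91% and 0.526% of the control mean. SvbACT was at least 65.0-fold lower than control when its libraries were set at the floor of 3 counts each. Control libraries spanned only 37.4 to 39.9 CPM. The control level ranked above 62.8% of the genes in the table, a middling abundance and not a trace signal. These contrasts chose the gene, so they are given as a description with no test. In bulk RNA, fewer cells of a type and less RNA per cell cannot be told apart. The 3 comparisons share the control libraries, and control, crossed to Canton-S, is also the only group without a hairpin or Svb transgene, so an effect of Svb and a difference in strain background cannot be told apart.

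**Figure D1:**
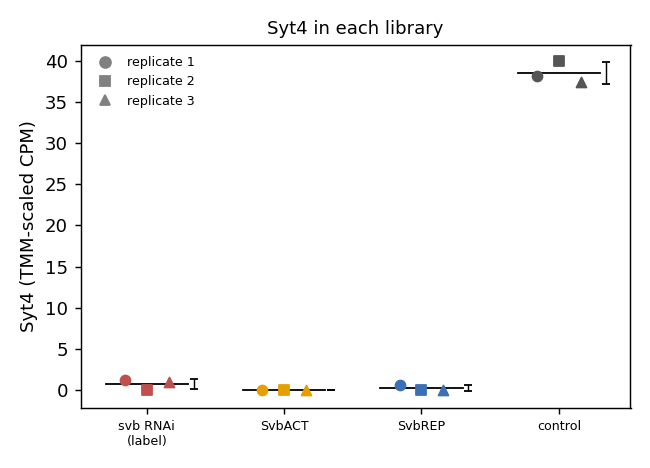
Syt4 level in TMM-scaled CPM (vertical axis) in each of the 12 libraries, grouped by genotype. Markers are replicates, horizontal lines are group means and bars are SD over 3 libraries. The control libraries lie between 37.4 and 39.9 CPM and all 9 transgenic libraries at or below 1.25 CPM.

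The residual Syt4 reads of the transgenic groups are given as counts and with no test, because Syt4 passed the filter through control alone and the choice of the gene set these levels near 0. SvbACT had 0 reads in all, the libraries labelled svb RNAi 10, in replicates 1 and 3, and SvbREP 4, all in replicate 1. In the authors' deposited table, Syt4 is called lower in each of the 3 comparisons with control and in SvbACT against the RNAi group. It is not called there in SvbACT against SvbREP. These calls rest on the counts that chose the gene, so nothing is read from them.

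Markers of visceral muscle, which surrounds the gut epithelium, were also low in part of the transgenic libraries. The 9 listed genes, all in the table, summed to 12.8 to 20.4 CPM in the libraries labelled svb RNAi, 31.1 to 40.0 CPM in SvbACT and 14.7 to 25.8 CPM in SvbREP, against 28.2 to 79.0 CPM in control. The sums lay wholly below control in the libraries labelled svb RNAi and in SvbREP and overlapped control in SvbACT. Median log2 fold changes of the 6 tested genes against control were -1.73 in the libraries labelled svb RNAi, -1.40 in SvbACT and -1.67 in SvbREP. wupA went the other way in SvbACT, at 8.75 ± 3.34 CPM against 1.21 ± 1.43 CPM in control (SD, n = 3 each). edgeR called wupA higher in SvbACT than in SvbREP and than in the libraries labelled svb RNAi. Mlp60A had no counts in the libraries labelled svb RNAi and Mlc1 none in SvbACT. Of 6 tested, edgeR called 1 in SvbREP against control (Mhc, the muscle myosin heavy chain, lower), where 2.08% of all tested genes were called. It called 0 in the libraries labelled svb RNAi and in SvbACT against control, where 8.5% and 4.46% of all tested genes were called. At an unadjusted p under 0.05 these 2 comparisons had 2 each, where 19% and 17% of all tested genes reached it. SvbREP against control had 3 (Mhc, wupA and sls), where 12.9% of all tested genes reached it. Against control, DESeq2 called bt in the libraries labelled svb RNAi, 0 in SvbACT and Mhc in SvbREP. The part of muscle RNA in the Syt4 values was not tested.

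Of the 4 tested genes that lie within 50 kb of Syt4, all upstream of it, none was called in any comparison with control in edgeR's test. The nearest, Dtwd2, begins 14315 bases away by its closest end. Its log2 fold changes were -0.12 in the libraries labelled svb RNAi, -0.14 in SvbACT and 0.42 in SvbREP. Over the 4 neighbours (Noc3, CG10053, CG1227 and Dtwd2) they ranged from -0.63 to 0.81 in the 3 comparisons. The smallest adjusted p among them was 0.225, for Noc3 in SvbACT.

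The other calcium sensors were nearly silent. Syt1 (FBgn0004242, chromosome 2L from 2772327 to 2799979) is the fast calcium sensor of synaptic vesicle release. It had 1, 7 and 14 counts in the libraries labelled svb RNAi, 6, 6 and 5 in SvbACT and 7, 0 and 3 in SvbREP, against 2, 4 and 3 in control. These counts never exceeded 2.22 CPM in a library. Only SvbACT, at 0.95 to 1.43 CPM, lay wholly above control, at 0.50 to 0.84 CPM, by a few reads at this depth; ranges of this kind did not overlap in that direction for 10.2% of all tested genes. Esyt2 (FBgn0266758, 3R from 24544719 to 24556549) encodes an extended synaptotagmin, which tethers the endoplasmic reticulum to the plasma membrane. Its 43 reads lay mostly in replicate 2 of 2 groups, with 12 in replicate 2 labelled svb RNAi and 22 in control replicate 2. At most 1 read was seen in any SvbACT library and at most 5 in any SvbREP library. With the filter lifted, edgeR's smallest adjusted p for Syt1 was 0.767 and for Esyt2 0.348.

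Syt7 (FBgn0039900, chromosome 4 from 278685 to 306481) encodes a synaptotagmin with high calcium affinity that in mammals serves slow and asynchronous release. It had 8, 3 and 8 counts in the libraries labelled svb RNAi, 48, 15 and 0 in SvbACT and 18, 27 and 2 in SvbREP, against 1, 12 and 3 in control. Means were 1.42 ± 1.02 CPM in the libraries labelled svb RNAi, 3.84 ± 3.98 CPM in SvbACT and 2.36 ± 1.28 CPM in SvbREP, against 0.92 ± 0.72 CPM in control (SD, n = 3 each). The SvbACT mean was the highest, but its libraries ran from 0 to 7.95 CPM and took in the whole control range. The log2 fold change of SvbACT over control was 1.97, with a 95% interval of -0.55 to 4.50 (edgeR's adjusted p 0.459); it ran from 0.88 without SvbACT replicate 1 to 2.81 without control replicate 2. The difference did not pass the threshold.

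The v-SNAREs of the set differ greatly in level. Syb (FBgn0003660, 2R from 10249435 to 10252417) is the broadly expressed synaptobrevin and was the most abundant gene of the set. Its counts were 212, 405 and 550 in the libraries labelled svb RNAi, 663, 400 and 260 in SvbACT and 1129, 782 and 130 in SvbREP, against 472, 752 and 226 in control. Scaled, Syb stood at 73.4 ± 12.1 CPM in the libraries labelled svb RNAi, 84.7 ± 31.6 CPM in SvbACT and 110.3 ± 56.3 CPM in SvbREP, against 95.3 ± 28.6 CPM in control (SD, n = 3 each). In order of the mean, SvbREP came first, then control, SvbACT and the libraries labelled svb RNAi, and no neighbours in that order were separated beyond their spread. Over the 6 comparisons its log2 fold changes ran from -0.39 to 0.60 and the 95% intervals reached from -1.17 to 1.37. The smallest adjusted p was 0.388, in edgeR's test of SvbREP against the libraries labelled svb RNAi. nSyb (FBgn0013342, 3L from 1630348 to 1637752), the neuronal synaptobrevin, had 2, 10 and 5 counts in the libraries labelled svb RNAi, 16, 0 and 4 in SvbACT and 9, 0 and 0 in SvbREP, against 4, 13 and 0 in control. It was at 0 in 4 of 12 libraries, and its 95% intervals, from -4.17 to 4.31 at the extremes, leave large changes in either direction possible.

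The t-SNARE Snap25 (FBgn0011288, 3L from 24074180 to 24299205), the partner of syntaxin in regulated exocytosis, was detected in every library. It had 56, 67 and 56 counts in the libraries labelled svb RNAi, 111, 23 and 35 in SvbACT and 88, 77 and 39 in SvbREP, against 46, 38 and 48 in control. Levels were 12.5 ± 4.52 CPM in the libraries labelled svb RNAi, 10.2 ± 7.15 CPM in SvbACT and 13.8 ± 4.26 CPM in SvbREP, against 10.1 ± 4.23 CPM in control (SD, n = 3 each). The 4 groups overlapped, and all 6 log2 fold changes lay between -0.41 and 0.45 (edgeR's adjusted p at least 0.744). The 95% intervals reached from -1.48 to 1.53.

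The complexin gene cpx (FBgn0041605, 3R from 4280221 to 4304604) was the only tested member of the set besides Syt4 with groups whose ranges did not overlap. The libraries labelled svb RNAi had 22, 26 and 22 counts, SvbACT libraries 8, 0 and 8 and SvbREP libraries 10, 17 and 1, against 0, 22 and 3 in control. The libraries labelled svb RNAi lay at 3.50 to 6.90 CPM and all 9 others at or below 3.07 CPM. Of all tested genes, 3.61% likewise had their 3 libraries labelled svb RNAi above the other 9. Taken by pairs of groups, ranges did not overlap in the same direction for 13.9% of genes against control, 13.9% for SvbACT and 13.6% for SvbREP against the libraries labelled svb RNAi. The mean was 4.88 ± 1.78 CPM in the libraries labelled svb RNAi, against 1.30 ± 1.59 CPM in control (SD, n = 3 each). This gave a log2 fold change of 1.79 with a 95% interval of -0.58 to 4.17 (edgeR's adjusted p 0.443), and 3.55 without control replicate 2. SvbACT, at 0.95 ± 0.83 CPM, stood 2.29 below the libraries labelled svb RNAi on the log2 scale (adjusted p 0.270). SvbREP, at 1.38 ± 0.85 CPM, stood 1.71 below them (adjusted p 0.422). None of the 3 passed the threshold, although the ranges did not overlap.

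**Figure D2:**
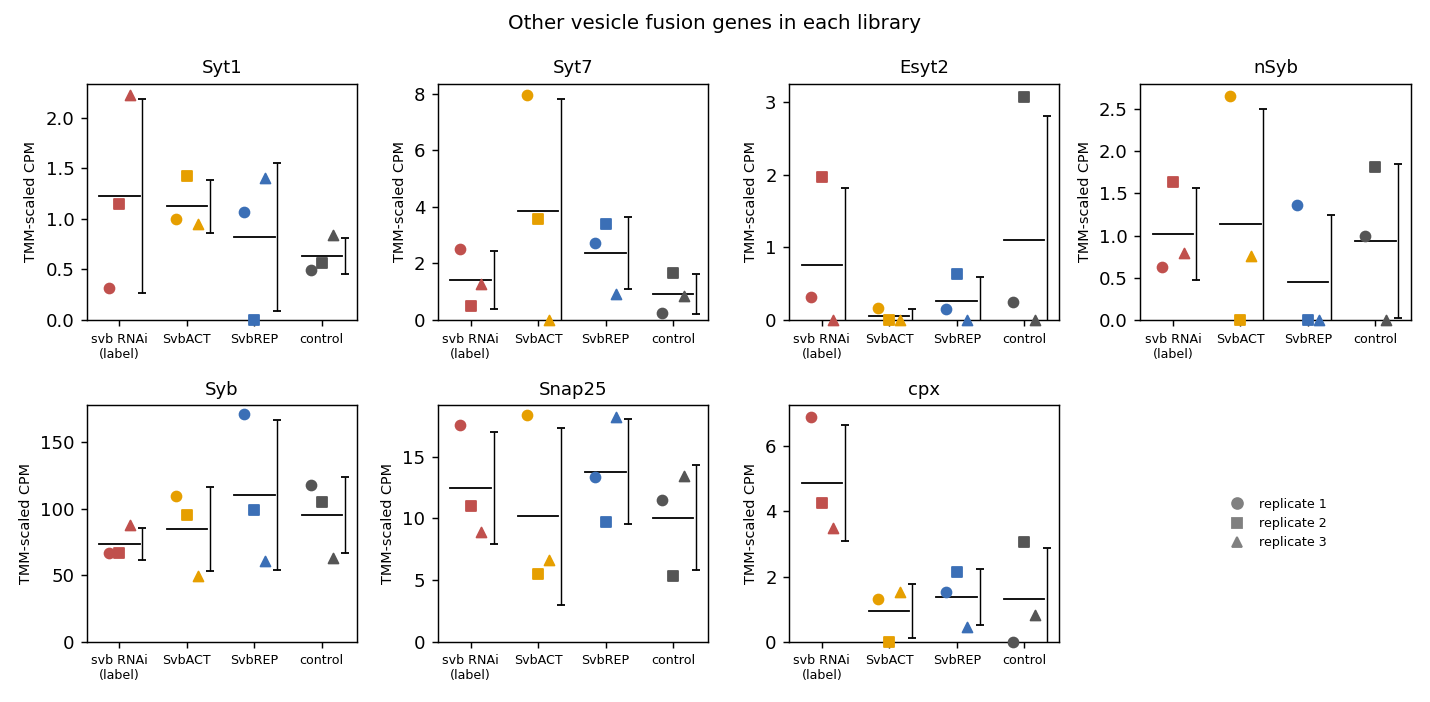
Levels in TMM-scaled CPM (vertical axes, each from 0) of Syt1, Syt7, Esyt2, nSyb, Syb, Snap25 and cpx in each library, by genotype; lines are means and bars SD over 3 libraries. Groups overlap in every panel except Syt1, where SvbACT lies above control, and cpx, where the libraries labelled svb RNAi (3.50 to 6.90 CPM) lie above the others (at most 3.07 CPM).

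The summed enteroendocrine markers had their highest median in the libraries labelled svb RNAi. Their range there overlapped those of SvbACT and, barely, control, and lay above that of SvbREP. The 14 markers of enteroendocrine cells, all of them in the table, summed to 53.3, 86.5 and 236.4 CPM in the libraries labelled svb RNAi. They summed to 68.4, 19.5 and 42.4 CPM in SvbACT and 16.4, 25.9 and 14.5 CPM in SvbREP, against 9.24, 53.3 and 19.3 CPM in control. The library with the highest sum, replicate 3 labelled svb RNAi, had the lowest cpx level of its group, at 3.50 CPM. IA-2, Tk, pros and Dh31 carried most of the sum in the libraries labelled svb RNAi. Means there were 62.3 ± 66.0, 20.3 ± 28.6, 19.0 ± 9.13 and 9.05 ± 11.9 CPM, against 11.95, 1.95, 5.41 and 0.33 CPM in control (SD, n = 3 each). Tk and Dh31 had counts in only 2 of these 3 libraries, and the ranges of IA-2, Tk and Dh31 overlapped control. For pros these libraries lay at 11.5 to 29.2 CPM and all 9 others at or below 8.10 CPM, a separation that 3.61% of all tested genes had. Median log2 fold changes of the 9 tested against control were 1.78 in the libraries labelled svb RNAi, 0.59 in SvbACT and -0.60 in SvbREP. In the first of these the 9 values ran from 0.25 to 5.44, all of them higher. Over the 4 groups the list did not move as 1 block. NPF, AstC, Orcokinin and amon had their highest mean in SvbACT, and AstA had its highest in control. Of 9 tested, edgeR called 0 in the libraries labelled svb RNAi against control, where 8.5% of all tested genes were called. At an unadjusted p under 0.05 there were 4, where 19% of all tested genes reached it, while DESeq2 called pros and Orcokinin. In SvbREP against the libraries labelled svb RNAi the median log2 fold change of the 9 was -2.44. There edgeR called 0, where 8.7% of all tested genes were called, and DESeq2 called pros, Orcokinin and IA-2. In edgeR's test NPF was called higher in SvbACT against control and against SvbREP, and CCHa1 lower in SvbACT against the libraries labelled svb RNAi. Over all tested genes the shares called in these 3 comparisons were 4.46%, 7.21% and 8.24%. Of the list, nvy and Mip had no counts in the libraries labelled svb RNAi. CCHa1 and nvy had none in SvbACT, Mip none in SvbREP, and NPF, Mip and nvy none in control. The neuronal markers in the table, 4 of 7, summed to 144 to 189 CPM in the libraries labelled svb RNAi, 144 to 188 CPM in SvbACT and 62.6 to 125 CPM in SvbREP, against 126 to 179 CPM in control. Most of that sum was elav, with means of 141, 155 and 86.2 CPM in that order, against 133 CPM in control. Enterocyte markers, 9 of 9, summed to 318 to 413 CPM in the libraries labelled svb RNAi, 412 to 664 CPM in SvbACT and 860 to 1043 CPM in SvbREP, against 559 to 717 CPM in control. Myo31DF made up most of it, with means of 241, 397 and 785 CPM in that order, against 550 CPM in control. Median log2 fold changes of the 8 tested against control were -0.02, 0.56 and -0.27. Against control edgeR called only Myo31DF, lower in the libraries labelled svb RNAi, where 8.5% of all tested genes were called. Hml, a hemocyte marker, was at 0 in every library. The part of other cell types in these values was not tested.

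**Figure D3:**
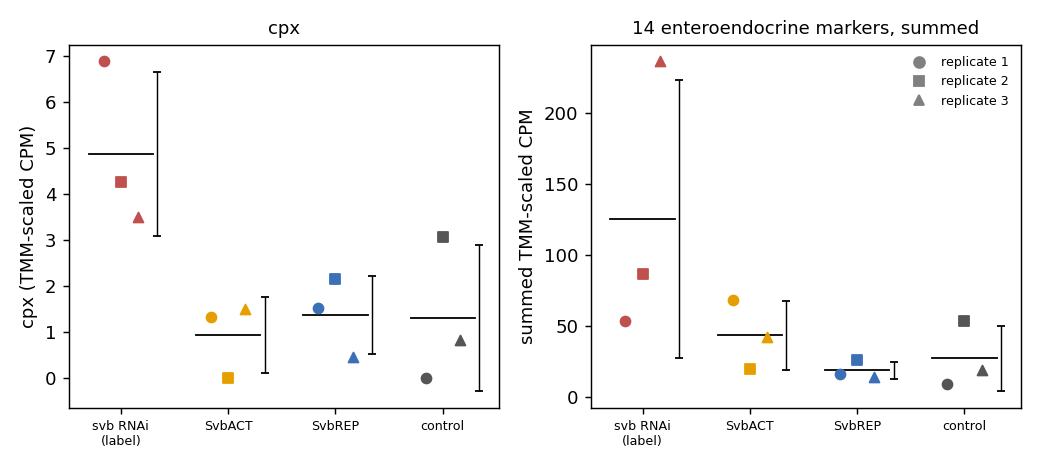
cpx level (left) and the summed level of 14 enteroendocrine markers (right), both in TMM-scaled CPM, in each library; lines are means and bars SD over 3 libraries. The marker sum is 53.3 to 236.4 CPM in the libraries labelled svb RNAi and 9.24 to 53.3 CPM in control.

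Counted over the set, 1 of 6 tested members, Syt4, was called lower in each comparison with control, which is what chose it. Of all tested genes 6.66% were called lower in the libraries labelled svb RNAi, 2.55% in SvbACT and 1.35% in SvbREP. The share called in either direction was 8.5% for the libraries labelled svb RNAi, 4.46% for SvbACT and 2.08% for SvbREP. For the last comparison 290 genes were called with the replicate number as a block and 168 without it, and the member called was 1 in both. Leaving Syt4 aside, 0 of 30 tests of the other 5 members passed in edgeR, 0 had an unadjusted p under 0.05, and DESeq2 called 0. Between the transgenic groups the shares called over all genes were 7.21% for SvbACT against SvbREP, 8.24% for SvbACT against the libraries labelled svb RNAi and 8.7% for SvbREP against them. An unadjusted p under 0.05, which serves to count genes of related lists, was reached by 19% of all tested genes in the libraries labelled svb RNAi, 17% in SvbACT and 12.9% in SvbREP, against control. Between the transgenic groups it was reached by 19.3%, 21.4% and 21.5% in the order above. A p that misses the threshold does not show equal levels. The intervals of Syb and Snap25 stayed within -1.48 to 1.53 on the log2 scale.

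**Figure D4:**
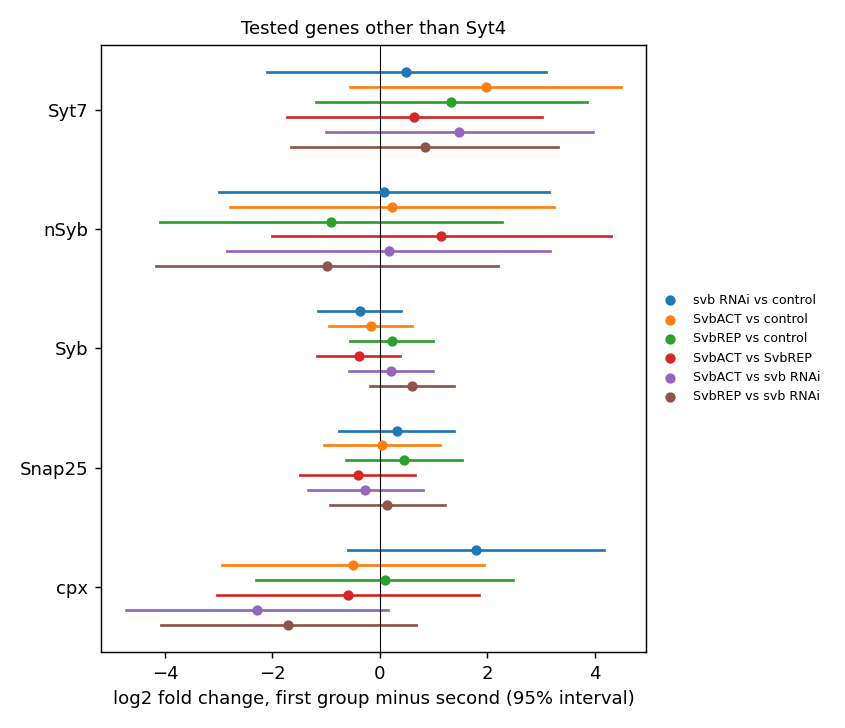
log2 fold changes (points) with 95% intervals (lines) of the 5 tested genes other than Syt4 in 6 comparisons, the group named first minus the second. Every interval includes 0; those of Syb and Snap25 stay between -1.48 and 1.53, and those of nSyb reach from -4.17 to 4.31.

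Levels of different genes were compared per kilobase of exon (CPM per kb). In control, Syb stood at 77.0 ± 23.1 CPM per kb, Syt4 at 12.4 ± 0.42 and Snap25 at 4.41 ± 1.85 (SD, n = 3 each). Syt7, Esyt2, nSyb, cpx and Syt1 all lay between 0.088 and 0.315 CPM per kb, within each other's spread. Syt4 was thus the second gene of the set in control, above Snap25 in every control library, and the only synaptotagmin of the set at more than trace level. In the transgenic groups Snap25 took that place, at 5.47 ± 1.98 CPM per kb in the libraries labelled svb RNAi, 4.45 ± 3.13 in SvbACT and 6.03 ± 1.87 in SvbREP. Syt4 there stood at 0.24 ± 0.21, 0 and 0.07 ± 0.11 CPM per kb. The other SNAP proteins were more abundant than Snap25. In control Snap24, which can stand in for Snap25 in flies, had a mean of 20.5 CPM per kb and Snap29, a SNAP of endosomal and autophagic fusion, 22.5 CPM per kb.

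The other C2 proteins of the family were examined for a change like that of Syt4. Of 6 listed, 4 were tested (Syt14, Sytbeta, btsz and Rph), and none was called in any of the 6 comparisons by edgeR. Sytbeta averaged 4.88 ± 1.59 CPM in the libraries labelled svb RNAi, 10.8 ± 2.61 CPM in SvbACT and 9.36 ± 5.57 CPM in SvbREP, against 11.96 ± 3.45 CPM in control (SD, n = 3 each). Its log2 fold change in the libraries labelled svb RNAi was -1.29 (adjusted p 0.161). btsz, which encodes the synaptotagmin-like protein Bitesize of apical membrane organisation in epithelia, was the most abundant of them. It averaged 262 ± 31.7 CPM in the libraries labelled svb RNAi, 239 ± 85.0 CPM in SvbACT and 329 ± 130 CPM in SvbREP, against 475 ± 192 CPM in control. The log2 fold change of SvbACT was -0.99 (edgeR's adjusted p 0.105), whereas DESeq2 called it. At an unadjusted p under 0.05, Sytbeta and btsz passed in the libraries labelled svb RNAi, btsz in SvbACT, and Sytbeta in SvbACT against the libraries labelled svb RNAi. The median log2 fold changes of the 4 were -0.63 in the libraries labelled svb RNAi, -1.22 in SvbACT and -0.40 in SvbREP, against 0.02, -0.01 and -0.02 over all tested genes. In SvbACT the 4 values ran from -2.45 to -0.15. Syt14 and Rph lay near the floor there, with 5 and 13 reads in all, against 25 and 29 in control. A median of so few genes does not show a fall of the family. Sytalpha and Syt12, not tested, had at most 22 reads in any group.

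None of the 18 other SNAREs was called in any comparison by edgeR. Their median log2 fold changes were -0.18 in the libraries labelled svb RNAi, 0.03 in SvbACT and -0.02 in SvbREP, against control. Between groups the medians of the SNAREs were 0.07 for SvbACT against SvbREP, 0.03 for SvbACT and -0.08 for SvbREP against the libraries labelled svb RNAi. At an unadjusted p under 0.05 the numbers were 0, 1 and 1 in the comparisons with control in that order and 4, 1 and 5 between groups, of 18 genes each; over all tested genes the shares in the last 3 were 19.3%, 21.4% and 21.5%. DESeq2 called none in 4 of the 6 comparisons, Snap29 and Syx4 in SvbACT against SvbREP, and Syx4 in SvbREP against the libraries labelled svb RNAi. Syx4, a plasma membrane syntaxin, is named after its values were seen. It averaged 0.91 ± 1.37 CPM in SvbACT, while SvbREP had 9.74 ± 2.39 CPM (SD, n = 3 each). On the log2 scale the difference was -3.32 ± 1.00 (SE), and edgeR's test gave an adjusted p of 0.0528. In SvbREP against the libraries labelled svb RNAi, at 1.16 ± 0.89 CPM, the log2 fold change was 3.13 ± 1.00 (adjusted p 0.0620). The ranges did not overlap in either comparison, which in the same direction held for 10.1% and 13.6% of all tested genes.

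Among 17 tested regulators of SNARE assembly, 2 were called, both in the libraries labelled svb RNAi against control, where 8.5% of all tested genes were called. unc-13, which primes vesicles by opening syntaxin, rose to 906 ± 166 CPM in the libraries labelled svb RNAi, against 468 ± 35.9 CPM in control (SD, n = 3 each). This is 0.95 ± 0.24 (SE) higher in log2 units (adjusted p 0.0151, edgeR). Antisense RNAs and other annotated transcripts overlap its exons on chromosome 4 and the use of strand is not given in the sources used here, so its level is uncertain. stac, an unc-13 relative that acts in the fusion of tracheal tubes, fell to 30.01 ± 1.97 CPM in the libraries labelled svb RNAi, against 56.9 ± 11.1 CPM in control. This is -0.92 ± 0.27 (SE) in log2 units (adjusted p 0.0396, edgeR). The median of the 17 was -0.19 in that comparison, against 0.02 over all genes. In the other 5 comparisons edgeR called none. At an unadjusted p under 0.05 there were 0 in SvbACT and 0 in SvbREP against control, 0 between them, and 4 and 5 against the libraries labelled svb RNAi, for SvbACT and SvbREP in that order, where 21.4% and 21.5% of all tested genes reached it. DESeq2 called unc-13 and stac in the first comparison and unc-13 and Cadps in SvbACT against the libraries labelled svb RNAi. Rop, which binds syntaxin for fusion at the plasma membrane, had mean levels between 54.4 and 68.0 CPM in all groups.

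The exocyst, the 8-subunit complex that tethers secretory vesicles at the plasma membrane, had 0 of 8 genes called by edgeR in every comparison. Its median log2 fold changes against control were -0.23 in the libraries labelled svb RNAi, 0.19 in SvbACT and 0.00 in SvbREP. No single gene passed 1 log2 unit, the extremes being -0.48 and 0.66 over the 6 comparisons. At an unadjusted p under 0.05 only Exo84 passed, in SvbACT against the libraries labelled svb RNAi, and DESeq2 called none.

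**Figure D5:**
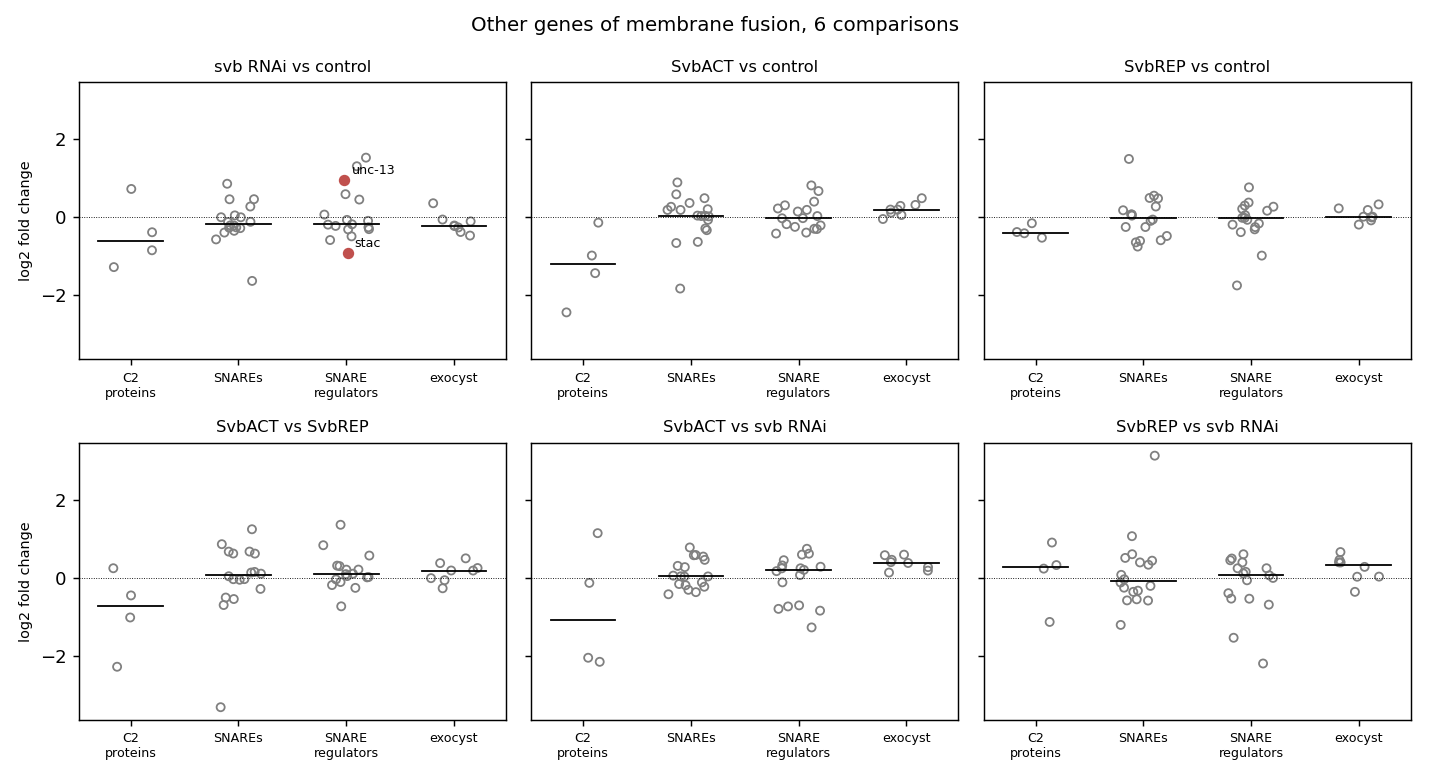
log2 fold changes (vertical axes, the group named first minus the second) of tested C2 proteins (4), SNAREs (18), SNARE regulators (17) and exocyst genes (8) in 6 comparisons. Lines are list medians, and filled points are genes with an adjusted p under 0.05, which are unc-13 and stac in the libraries labelled svb RNAi against control.

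Genes whose pattern over the 12 libraries was most like that of Syt4 were ranked by Pearson correlation of log2 CPM, as a description. The 12 points share their libraries and depths. The closest was Hsp70Ba, a heat-shock chaperone gene, with r = 0.97. It averaged 58.3 ± 17.4 CPM in the libraries labelled svb RNAi, 42.7 ± 17.1 CPM in SvbACT and 47.5 ± 29.1 CPM in SvbREP, against 374 ± 94.8 CPM in control (SD, n = 3 each). Near-identical Hsp70 copies elsewhere in the genome make its own level uncertain. Cdep (r = 0.92), CG8668 (0.91), yuri (0.90) and CG42674 (0.90) followed. Exons of yuri are overlapped by Uxt on the other strand. These 4 were lower than control by much less, Cdep with 384, 376 and 368 CPM in the libraries labelled svb RNAi, SvbACT and SvbREP, against 535 CPM in control. Of 8068 genes, 3 had r above 0.9, and the median r was 0.04. Separately, 161 of the 8069 tested genes (2%) had all 9 transgenic libraries below all 3 control libraries, Syt4 among them. In no other member of the set did the transgenic libraries all lie on one side of control.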

How the data were processed

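RNA of 12 libraries was made with a kit for low inputs and read as single 100-nt reads, per the labels. The submitters' processing notes name FastQC 0.11.5, STAR 2.5.2b, HTSeq 0.6.0, edgeR and the build dm6; strand use, annotation and gene filter are not given in the sources used here. The authors deposited raw read counts per gene for 8802 genes. Their table also holds log2 fold changes, p-values and a score of 1, 0 or -1 per gene as call, per the file headers; these are used only where named as the authors'.

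Symbols and positions came from Ensembl release 115 (BDGP6.54, dm6 coordinates). Counts were fitted in R 4.3.3 with edgeR 4.0.16 (filterByExpr, TMM, robust quasi-likelihood, 1 mean per group over all 12 libraries). Benjamini-Hochberg adjustment ran over 8069 genes within each of 6 comparisons, at a threshold of 0.05. Intervals are 95% intervals from the F test's degrees of freedom. CPM uses TMM-scaled totals, and CPM per kb divides by merged exon length. Named genes were the 9 members, ovo, list genes called at 0.05 and the 5 genes most correlated with Syt4 on log2 CPM with a prior count of 2; other list genes are named where a count is small. The members and lists were chosen with earlier results of these data known. The fit was also run on counts simulated from its own estimates of spread. Such a run cannot check those estimates, and nothing is read from it. Alternatives were DESeq2 1.42.0, its size factors, library totals, no filter, only the groups compared, the replicate block and each replicate left out.

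Replicate numbers come from the sample titles. Only for SvbREP and control did the deviations of same-numbered libraries correlate at 0.108 or above in every pair (0.108 to 0.256). Every pair was also positive for the libraries labelled svb RNAi and control (0.062 to 0.232) and for SvbACT and control (0.019 to 0.106). The report's fit did not use the numbers as pairs, and the replicate block was run only as an alternative. The series' design text gives a separate calendar day for each replicate of a genotype.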

Additional observations from a re-analysis of the deposited data

How the results depend on the processing

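Syt4 kept its direction against control under every alternative run, but the choice of the gene from these same counts fixed this in advance, so nothing is read from it. The other tested members were never called. Settings that kept all replicates moved some counts of all genes by over 1.5 times. With only the groups compared, 1091 genes were called in the libraries labelled svb RNAi against control (686 in the report's fit) and 340 in SvbACT against SvbREP (582). DESeq2 called 616 in SvbACT (360) and 321 in SvbREP (168) against control, and the replicate block called 290 in SvbREP. The block changed no call of a member; it turned the log2 value of nSyb in SvbACT against the libraries labelled svb RNAi to -0.33 and of Snap25 in SvbACT against control to -0.048. In the other 5 comparisons the mean correlations of same-numbered libraries were 0.004 to 0.147. There the block gave 864 genes for the libraries labelled svb RNAi and 500 for SvbACT, both against control. It gave 685 for SvbACT against SvbREP. Against the libraries labelled svb RNAi it gave 898 for SvbACT and 956 for SvbREP. Only 21 of 36 member values could be fitted with only the groups compared, because low genes failed the filter there. The cause of these changes was not tested.

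Leaving out a replicate gave 407 to 549 genes in the libraries labelled svb RNAi against control, lowest without control replicate 3 and 435 without replicate 3 labelled svb RNAi. It gave 175 to 279 in SvbACT against control, with 175, 208 and 185 without control replicates 1, 2 and 3 and 227 without SvbACT replicate 2. It gave 54 to 242 in SvbREP against control, with 54 and 76 without control replicates 1 and 3 and 67 without SvbREP replicate 2. It gave 355 to 599 in SvbACT against SvbREP, lowest without SvbREP replicate 2. For SvbREP against the libraries labelled svb RNAi it gave 407 to 904, with 452 and 407 without replicates 1 and 3 labelled svb RNAi. Members called in SvbACT against the libraries labelled svb RNAi ranged from 0 to 1, the 1 being Syt4 without replicate 2 labelled svb RNAi; that replicate had no Syt4 read and SvbACT had none either, so nothing is read from it.

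Log2 values that crossed 0 when a replicate was left out, none of them called, had these ranges. Against control in SvbACT they were -0.68 to 0.36 for Snap25, -0.38 to 0.12 for Syb, -1.02 to 1.23 for cpx and -1.25 to 1.17 for nSyb. Against control in SvbREP they were -0.21 to 0.54 for Syb, -0.41 to 1.82 for cpx and -5.34 to 0.026 for nSyb, and in the libraries labelled svb RNAi -0.073 to 1.37 for Syt7 and -0.41 to 1.03 for nSyb. In SvbACT against SvbREP they were -0.70 to 0.060 for Syb, -0.50 to 1.21 for Syt7 and -0.38 to 5.59 for nSyb. Against the libraries labelled svb RNAi they were -1.03 to 0.016 for Snap25, -0.031 to 0.45 for Syb and -1.34 to 0.69 for nSyb in SvbACT, and -0.089 to 0.44 for Snap25 in SvbREP. Without SvbREP replicate 1, Syt4 had no read in SvbACT or SvbREP and gave no fold.

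At this depth nSyb, Syt7, cpx, Syt1 and Esyt2 had at most 48 counts in any library.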
